A study of Mus musculus with 12 samples.

Results

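The 9 genes described here encode the enzymes and carriers through which mouse cells handle retinol, the alcohol form of vitamin A. They are the alcohol dehydrogenases Adh1, Adh4, Adh5 and Adh7, the retinaldehyde dehydrogenases Aldh1a1, Aldh1a2 and Aldh1a3, the plasma carrier Rbp4 and its membrane receptor Stra6. The members were taken from an expression array as the probe sets annotated to 1 of these genes and to no other, which gave 13 probe sets for the 9 genes, of 45037 probe sets and 18193 genes in all. Adh1 was chosen on its measured level, which was lower in double null than in ApoE null aortic endothelial cells, so its values there are given as a description with no test. Aldh1a7, a close relative of Aldh1a1, was not a member and is given among the other aldehyde dehydrogenases.

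All mice were adults on the C57BL/6J strain and carried null alleles of Dscr-1, of ApoE, of both (double null) or of neither (WT). Dscr-1, now called Rcan1, is an inhibitor of the phosphatase calcineurin, which activates NFAT transcription factors, and ApoE is a ligand for the clearance of lipoproteins. Liver was measured on 8 arrays, 2 for each of the 4 genotypes. The labels place the liver mice on a high-fat diet, whereas the study's results describe normal chow for the arrayed livers, and the point could not be settled here. Primary aortic endothelial cells, isolated from the aorta and grown for several days, were measured on 4 arrays, 2 ApoE null and 2 double null, so every aortic array was labelled as lacking ApoE and no WT or Dscr-1 null aortic cells were analysed here. The series description names Dscr-1 null cells as the aortic controls, but the titles and genotype labels give ApoE null, which was used. Same-numbered aortic arrays share a run prefix in the labels and are compared within runs below. No label states that the replicates were separate animals or cultures, so p-values measure the spread between arrays, which may be technical.

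In the usual scheme, cytosolic alcohol dehydrogenases and membrane-bound retinol dehydrogenases oxidise retinol to retinaldehyde, and the ALDH1A enzymes then oxidise retinaldehyde irreversibly to retinoic acid. Retinoic acid binds the RAR and RXR receptors and is broken down by the CYP26 enzymes. The liver stores most of the vitamin A of the body and releases retinol bound to RBP4, and hepatocytes are also the main site of ethanol oxidation by ADH1.

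Adh7, Adh1, Adh4 and Adh5 lie in this order along 257.4 kb of chromosome 3, at chr3:138198064-138455499 of GRCm38.p6. The starts of Adh1 and Aldh1a1, the members with the lowest values in double null relative to ApoE null aortic cells, and of Adh4, which was bright in liver and dim in aortic cells, are shown so that the neighbouring genes can be compared. The RefSeq windows span 250 bases before to 50 bases after an annotated start on the plus strand, and capitals mark matches on either strand to GGAAA (the core of NFAT sites), AGGTCA (bound by many nuclear receptors), CACGTG (an E-box) and TATAAA.
Adh1, chr3:138277335-138277634: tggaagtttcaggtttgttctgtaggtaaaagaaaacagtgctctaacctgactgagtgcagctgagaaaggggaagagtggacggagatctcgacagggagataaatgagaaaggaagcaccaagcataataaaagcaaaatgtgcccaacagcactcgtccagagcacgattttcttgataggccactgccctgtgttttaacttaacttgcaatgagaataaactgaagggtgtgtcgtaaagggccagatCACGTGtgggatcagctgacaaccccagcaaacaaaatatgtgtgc
Adh4, chr3:138415247-138415546: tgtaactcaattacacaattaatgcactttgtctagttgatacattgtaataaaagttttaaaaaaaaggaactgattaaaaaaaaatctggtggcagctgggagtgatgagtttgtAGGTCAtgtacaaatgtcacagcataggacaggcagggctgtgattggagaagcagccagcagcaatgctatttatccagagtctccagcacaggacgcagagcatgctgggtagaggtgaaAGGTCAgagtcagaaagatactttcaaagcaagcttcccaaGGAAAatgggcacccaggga
Aldh1a1, chr19:20492333-20492632: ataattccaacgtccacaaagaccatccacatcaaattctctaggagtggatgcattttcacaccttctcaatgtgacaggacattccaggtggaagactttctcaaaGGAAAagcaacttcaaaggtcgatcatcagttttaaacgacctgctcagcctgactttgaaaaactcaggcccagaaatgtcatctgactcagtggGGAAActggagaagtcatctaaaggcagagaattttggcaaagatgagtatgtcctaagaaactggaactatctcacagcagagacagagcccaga
Aldh1a1, chr19:20601718-20602017: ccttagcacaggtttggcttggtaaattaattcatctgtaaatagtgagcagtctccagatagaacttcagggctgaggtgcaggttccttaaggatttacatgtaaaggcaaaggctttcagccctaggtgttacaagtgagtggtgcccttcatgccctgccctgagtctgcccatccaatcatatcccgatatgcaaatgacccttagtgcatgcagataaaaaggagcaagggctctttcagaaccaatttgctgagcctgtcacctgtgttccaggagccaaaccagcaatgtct

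The Adh1 window held 1 CACGTG and no match to the other motifs. The Adh4 window held 2 copies of AGGTCA and 1 of GGAAA. The upstream Aldh1a1 window held 2 copies of GGAAA, and the other Aldh1a1 window held no match. Among 32851 mouse windows of 300 bases, 61.3% held GGAAA, 16.3% AGGTCA, 7.2% CACGTG and 13.6% TATAAA, and no matches overlapped in the windows shown. These matches are letters in a window and were not tested as binding sites. The GC content was 45.3% for Adh1, 42.3% for Adh4 and 43.3% and 47.0% for the Aldh1a1 windows, near or below the lower quartile of all windows (45.7%).

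In liver, Adh1, Adh4, Adh5, Aldh1a1 and Rbp4 exceeded the array median on 8 of 8 arrays. The deposited liver values were MAS 5.0 signals, a linear brightness scaled by the authors to an average of 100, on which the array medians ran from 32.2 to 44.7. In aortic cells, where the deposited values were log2 and the array medians ran from 4.45 to 4.50, Adh1, Adh5, Adh7, Aldh1a1 and Stra6 exceeded the median on 4 of 4 arrays, while Adh4 and Rbp4 stayed below it on all 4. Levels of different genes were not ranked, since probe sets differ in how brightly they bind.

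Adh1, the major ethanol and retinol oxidising enzyme of mouse liver, had aortic log2 values of 9.91 and 9.72 on the ApoE null arrays, against 6.99 and 6.40 on the double null arrays. The groups did not overlap. The means were 9.82 ± 0.14 (SD, n = 2) and 6.69 ± 0.42 (SD, n = 2), a difference of -3.12, which corresponds to 8.71-fold lower in double null cells. Run 1 gave a difference of -2.93 (7.61-fold) and run 2 gave -3.32 (9.96-fold). Leaving out 1 array at a time left the difference between -3.42 and -2.83. These values come from the arrays on which Adh1 was chosen and are no test of its difference. Of 11647 genes read in aortic cells, Adh1 had the 4th lowest difference, as its choice implies. In double null cells the signal still exceeded 68.7% of the probe sets on the lower of the 2 arrays, against at least 93.1% on the ApoE null arrays.

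**Figure D1:**
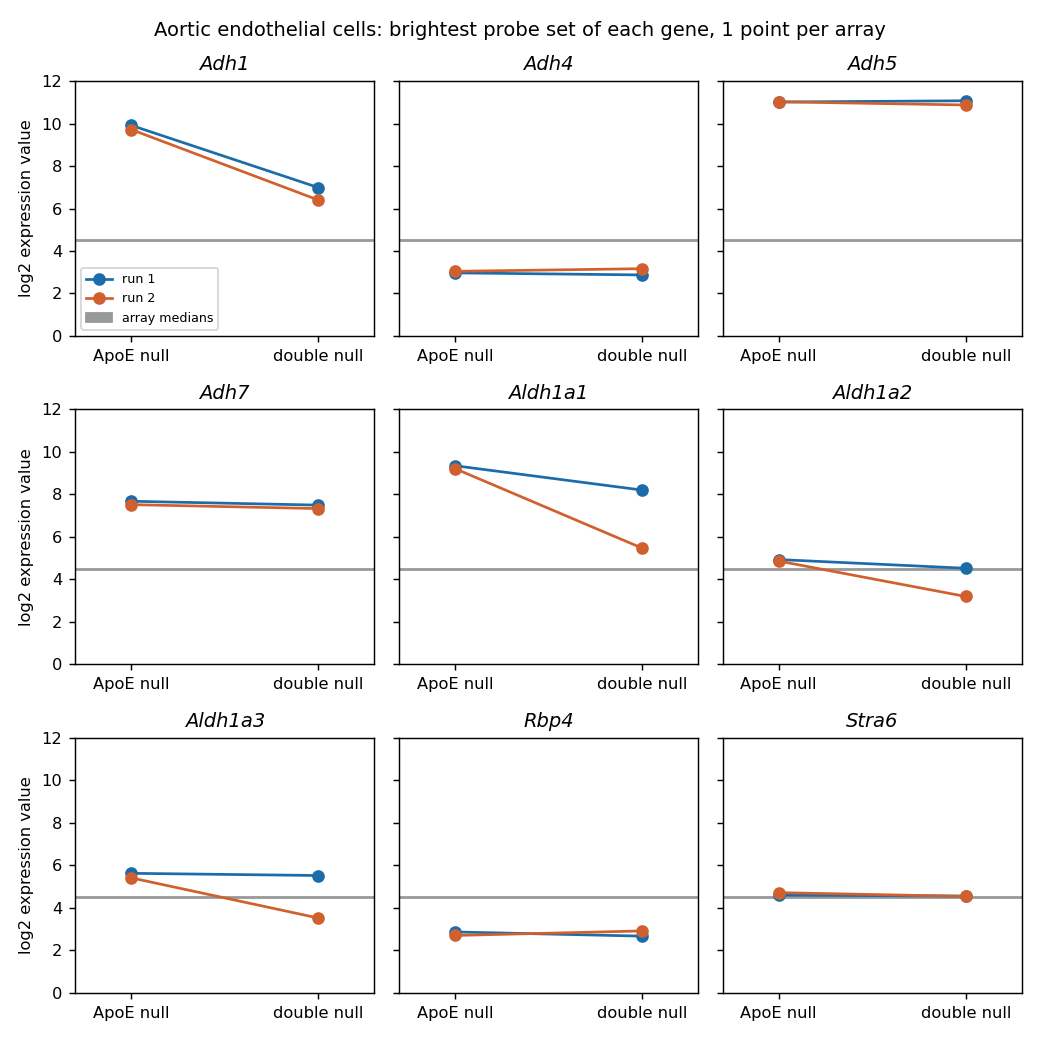
Log2 expression values (vertical axis) of the brightest probe set of each gene on the 4 aortic endothelial arrays. Lines join the ApoE null and double null array of 1 run and the grey line marks the array medians (4.45 to 4.50). Adh1 lay lower in double null cells in both runs (differences of -2.93 and -3.32), whereas the lines of Aldh1a1, Aldh1a2 and Aldh1a3 dropped further in run 2.

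The other alcohol dehydrogenases of the cluster showed no such difference. Adh5, the class III enzyme that clears formaldehyde with glutathione and is present in most tissues, had log2 values of 11.01 and 11.02 in ApoE null cells against 11.07 and 10.87 in double null cells. The groups overlapped, and the difference was -0.05 with a 95% interval of -0.45 to 0.36 (limma). Adh7, the class IV enzyme of stomach and other epithelia with high activity on retinol, had 7.68 and 7.52 against 7.50 and 7.34 on its brighter probe set. The double null values lay lower by 0.18 and 0.19 in the 2 runs. The interval of -0.60 to 0.23, from the fit without the run, included 0. The dimmer Adh7 probe set had 5.58 and 5.54 against 4.89 and 4.82, a difference of -0.71 that did not pass after adjustment (adjusted p = 0.694, unadjusted p = 0.00475, limma). Adh4, the class II enzyme of liver, had 2.97 and 3.04 against 2.87 and 3.17, all below the array medians, and was not tested.

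The 3 retinaldehyde dehydrogenases were lower on the double null array of run 2 by more than on that of run 1. Aldh1a1, the retinaldehyde dehydrogenase of many adult epithelia and of liver, had log2 values of 9.35 and 9.22 in ApoE null cells against 8.21 and 5.48 in double null cells. Both double null values lay below both ApoE null values, yet the difference was -1.15 in run 1 and -3.74 in run 2, 2.21-fold and 13.4-fold. The mean difference of -2.44 ± 0.88 (SE) did not pass after adjustment (adjusted p = 1, unadjusted p = 0.0405, limma). Without double null replicate 1 the difference was -3.81, and without double null replicate 2 it was -1.08.

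Aldh1a2, the enzyme that makes most retinoic acid in the embryo and marks mesothelium and other mesenchyme, was near the array medians, with 4.94 and 4.87 in ApoE null cells against 4.53 and 3.20 in double null cells. Its difference was -0.41 in run 1 and -1.67 in run 2, with a mean of -1.04 and an interval of -2.20 to 0.12. Aldh1a3, a retinaldehyde dehydrogenase of eye and other epithelia, had 5.63 and 5.42 against 5.53 and 3.53 on its brightest probe set, so that only the double null array of run 2 stood apart. Its differences were -0.10 and -1.89 on that probe set, whereas the other Aldh1a3 probe sets stayed below the array medians on all 4 arrays with mean differences of 0.07 and -0.01. The 3 probe sets of Aldh1a3 thus disagreed.

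The carrier and its receptor gave little signal in these cells. Rbp4, the plasma carrier of retinol made mainly by hepatocytes, had log2 values of 2.87 and 2.70 in ApoE null cells against 2.67 and 2.92 in double null cells, in the lower 17.4% of each array. Stra6, the receptor through which cells take up retinol from RBP4, lay just above the array medians at 4.60 and 4.72 against 4.56 and 4.54. Its difference of -0.11 had an interval of -0.49 to 0.27.

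Of the 7 members that passed the filter on low values in aortic cells, both double null arrays lay below both ApoE null arrays for 5 (Adh1, Adh7, Aldh1a1, Aldh1a2 and Stra6), above for 0 and overlapping for Adh5 and Aldh1a3. Of all genes read there, 14.3% lay below in the same way. Adh1 is in the count by its choice, and the remaining 4 of 6 include Adh7 on its brighter probe set and Stra6, whose differences were smaller than 0.2 on the log2 scale. At an adjusted p under 0.05 none of the 6 members other than Adh1 passed in limma, against 0.0172% of all genes. Of the 6, read from their brightest probe sets, Aldh1a1 alone had an unadjusted p under 0.05 in limma, where 4.95% of all genes had one. The methods' t-test gave 0 of the 6 at its unadjusted threshold, against 3.59% of all genes. With the run as a block 0 of the 6 and 0 of all genes passed. Without double null replicate 1, 3 of the 6 passed (Aldh1a1, Aldh1a2 and Aldh1a3), and without double null replicate 2, 1 did (Aldh1a1). In these fits the lone double null array was assumed to vary like the ApoE null pair, and 1964 and 465 of all genes passed.

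The labelled cell type was checked against its markers. All 12 endothelial markers exceeded the array median on all 4 aortic arrays, and their summed linear signal was 26630 and 25880 in ApoE null cells against 26930 and 23500 in double null cells. On the double null array of run 2, where the Aldh1a genes were lowest, the endothelial marker Vwf was 6.63, against 9.26 to 9.44 on the other arrays, whereas the endothelial marker Robo4 was 9.42 there against 8.16 to 8.45. Of the 12 endothelial markers 6 were higher and 6 lower in double null cells, with a median difference of -0.01. That array also had the lowest mean correlation with the other aortic arrays (0.9652, against 0.9799 to 0.982).

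Summed markers of some other cells differed between the groups beside Adh1 and Aldh1a1, and their part in these differences was not tested. The smooth muscle, adipocyte and hepatocyte sums overlapped between the groups. The 10 mesothelial markers summed to 2322 and 2220 in ApoE null cells against 1577 and 742.2 in double null cells, of which 3 or 4 exceeded the array median. The sums followed mostly Krt18 (10.47 and 10.43 against 10.03 and 8.84) and Gpm6a (9.60 and 9.47 against 8.50 and 7.30). Of the 4 mesothelial markers tested 1 was higher and 3 lower in double null cells. Upk1b was the higher one (difference 0.62), and Krt19 differed by -0.01. The defining markers Msln, Wt1 and Upk3b were below the median on every array. The 12 fibroblast markers summed to 5298 and 5132 against 11050 and 9448, with 8 or 9 above the median. Dcn led them at 12.02 and 12.02 against 12.79 and 13.09 and made up most of the sum of run 2. Of the 8 fibroblast markers tested 6 were higher and 2 lower in double null cells. Col1a2 and Col3a1 were higher in run 1 (differences of 2.1 and 1.6) and lower in run 2 (-0.84 and -2.0). The 10 smooth muscle markers summed to 2987 and 2845 against 6532 and 2612, with 6 above the median and Myh11 below it on every array. The 10 macrophage markers summed to 468.9 and 458 against 710.2 and 1622, with 5 above the median, while Ptprc, Adgre1 and C1qa were below it on every array. Of the 5 macrophage markers tested 4 were higher and 1 lower in double null cells. Lyz2 had the largest rise, at 5.33 and 5.48 against 7.46 and 9.47 (difference 3.06, adjusted p = 0.731, limma). The scavenger receptor Msr1, brighter than Lyz2 in ApoE null cells, went the other way at 6.46 and 6.60 against 4.71 and 4.76 (difference -1.79, adjusted p = 0.155, limma). The 8 adipocyte markers on the array summed to 4802 and 5579 against 3652 and 7937, with 3 or 4 above the median. The 12 hepatocyte markers, the list for the tissue richest in Adh1, summed to 204.6 and 206.1 against 248.6 and 175.7, with 2 or 3 above the median. In bulk samples, fewer cells of a type and less RNA per cell cannot be told apart.

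The surrounding pathway was read from 5 lists of 79 genes, of which 72 were on the array and 50 passed the filter in aortic cells. None of the 50 passed at an adjusted p under 0.05 (limma), 3 had an unadjusted p under 0.05 (4.95% of all genes did), and the methods' t-test gave 1 (Aldh1l2) at its unadjusted threshold (3.59% of all genes). Of the 50, 20 were higher and 30 lower in double null cells, with a median difference of -0.09, against 47.9% higher and a median of -0.01 over all genes. By list, 5 of 11 other alcohol and retinol dehydrogenases, 7 of 16 other aldehyde dehydrogenases, 3 of 7 genes of retinoid uptake, carriage and storage, 2 of 11 receptor and breakdown genes and 4 of 9 genes induced by retinoic acid were higher.

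Among the dehydrogenases, Adhfe1, an iron-type enzyme acting on hydroxybutyrate, had log2 values of 6.19 and 5.83 in ApoE null cells against 5.37 and 5.29 in double null cells (difference -0.68, adjusted p = 0.849, limma). Its 2 dimmer probe sets had differences of -0.16 and 0.02. Rdh12, a retinal reductase, had 4.75 and 3.80 against 5.57 and 5.41 (difference 1.22, adjusted p = 0.877, limma). Dhrs3, the reductase that returns retinaldehyde to retinol and is itself induced by retinoic acid, had 6.99 and 6.89 against 7.08 and 7.38.

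Among the aldehyde dehydrogenases, Aldh1l2, the mitochondrial 10-formyltetrahydrofolate dehydrogenase, had 6.93 and 6.92 against 7.46 and 7.61 (difference 0.61, adjusted p = 0.791, limma), and its cytosolic relative Aldh1l1 had 8.47 and 8.38 against 8.17 and 7.83. Aldh18a1, a proline synthesis enzyme, differed by 0.53 (adjusted p = 1, limma). Aldh1a7, whose sequence is close to that of Aldh1a1, had 6.71 and 6.32 against 5.89 and 3.03. Its differences of -0.82 in run 1 and -3.29 in run 2 lay near those of Aldh1a1 in each run, and signal from 1 of the pair may reach the probes of the other, so both values are uncertain.

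The genes of retinoid uptake, carriage and storage had a median difference of -0.14, the receptor and breakdown genes -0.20 and the genes induced by retinoic acid -0.09. In the first of these lists Retsat, which saturates retinol, differed by 0.38, the fatty acid and retinoic acid carrier Fabp5 by -0.28 and the lipase Lipe by -0.19. The nuclear receptors Nr2f2, Rarg and Nr2f1 differed by -0.64, -0.33 and 0.33. Tgm2, a transglutaminase induced by retinoic acid, had 10.43 and 10.31 in ApoE null cells against 10.59 and 11.10 in double null cells. Rarres1, another gene induced by retinoids, had 5.10 and 5.06 against 7.10 and 5.24, so that the double null array of run 1 alone stood apart. Rarb, the receptor gene most often used as a readout of retinoic acid, was below the median on the 4 arrays at 2.55 and 2.72 against 2.57 and 2.49 and was not tested. None of those tested passed (adjusted p = 1 for each, limma).

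**Figure D2:**
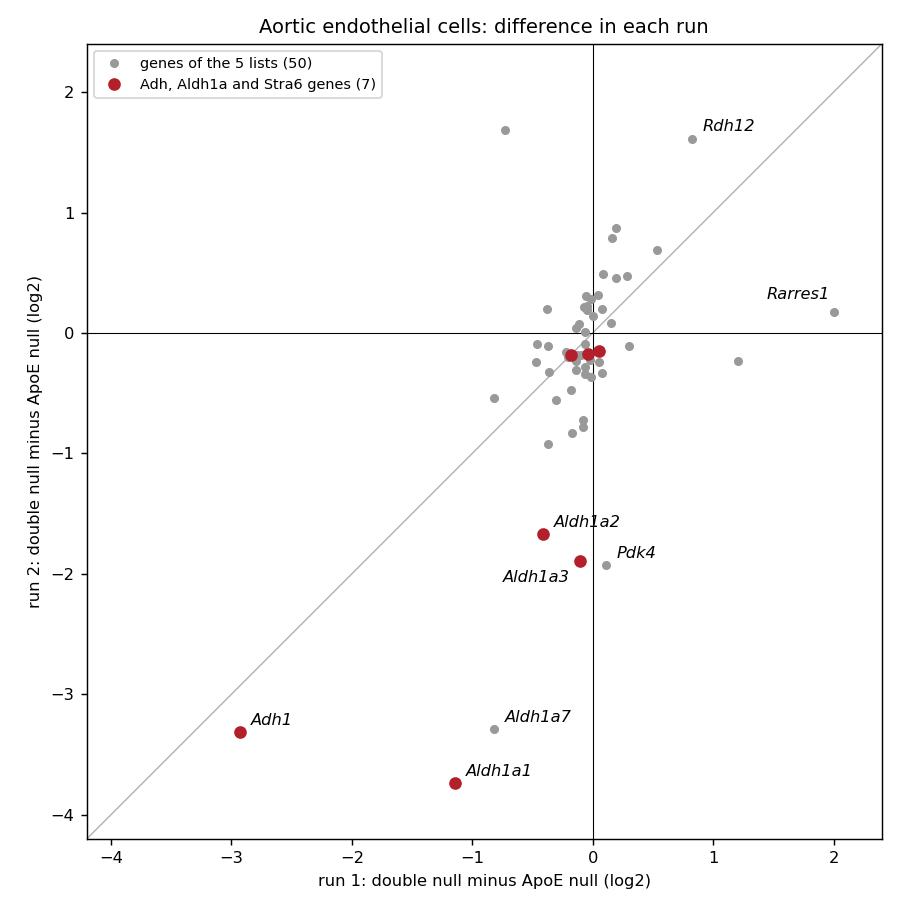
Double null minus ApoE null differences on the log2 scale in run 1 (horizontal axis) and run 2 (vertical axis) for the 7 members (red) and the 50 list genes (grey) that passed the filter in aortic cells, with the line of equality. Adh1 lay near the line at -2.93 and -3.32, whereas Aldh1a1 (-1.15 and -3.74) and Aldh1a7 (-0.82 and -3.29) lay below it.

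The genes whose aortic pattern was most like that of Adh1 were sought by the distance between log2 values centred on the mean of each gene over the 4 arrays. The nearest was Pnoc, a neuropeptide precursor, at a distance of 0.404, with 8.10 and 8.04 in ApoE null cells against 5.37 and 4.26 in double null cells. Lrmda followed at 1.02 and Adamtsl3 at 1.15, and then came the metalloproteinase inhibitor Reck at 1.32 and Htra4 at 1.33. With 4 arrays in 2 groups, this likeness repeats the choice of Adh1 for its difference and is given without a test.

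In liver, Adh1 was close to constant. Its signals were 15906 and 15376 in WT, 15862 and 14745 in Dscr-1 null, 13786 and 14611 in ApoE null and finally 15217 and 17969 in double null livers. The highest exceeded the lowest by 1.3-fold over 8 arrays (CV 8.03%), and the WT, Dscr-1 null and double null values overlapped. The fitted differences on the log2(signal + 16) scale were -0.03 for Dscr-1 null minus WT (95% interval -0.82 to 0.75), -0.14 for ApoE null minus WT (-0.92 to 0.64) and 0.08 for double null minus WT (-0.70 to 0.86). Double null minus ApoE null, the comparison made in the aortic cells, gave 0.22 (-0.56 to 1.0) in liver. The difference between tissues was not tested, since the 2 sets of arrays were made and normalized separately.

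Adh4 ran from 746.2 to 1139 with a median of 925.6 (CV 14.6%), with the lowest signal in ApoE null replicate 1 and the highest in Dscr-1 null replicate 2. Adh5 had 4934 and 4086 in WT, 4046 and 4227 in Dscr-1 null, 6450 and 3286 in ApoE null and finally 3955 and 4550 in double null livers, so that the ApoE null pair held both its highest and its lowest value. Rbp4 had 14258 and 13498 in WT, 13812 and 14110 in Dscr-1 null, 18975 and 13186 in ApoE null and finally 13668 and 14375 in double null livers. The ApoE null pair again held both extremes, and without ApoE null replicate 1 the highest Rbp4 signal exceeded the lowest by 1.09-fold, against 1.44-fold with it.

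Aldh1a1 had 11191 and 12448 in WT, 9017 and 10684 in Dscr-1 null, 16917 and 6776 in ApoE null and finally 10159 and 8392 in double null livers. Dscr-1 null and double null minus WT gave differences of -0.27 and -0.35 on the log2 scale that did not pass (adjusted p = 1 and 0.966, limma). The ApoE null pair spanned all other values. ApoE null replicate 1 was the highest of 8 arrays for Aldh1a1, Adh5 and Rbp4, and it also had the highest array median (44.7) and the lowest mean correlation with the other liver arrays (0.8347, against 0.873 to 0.8834).

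**Figure D3:**
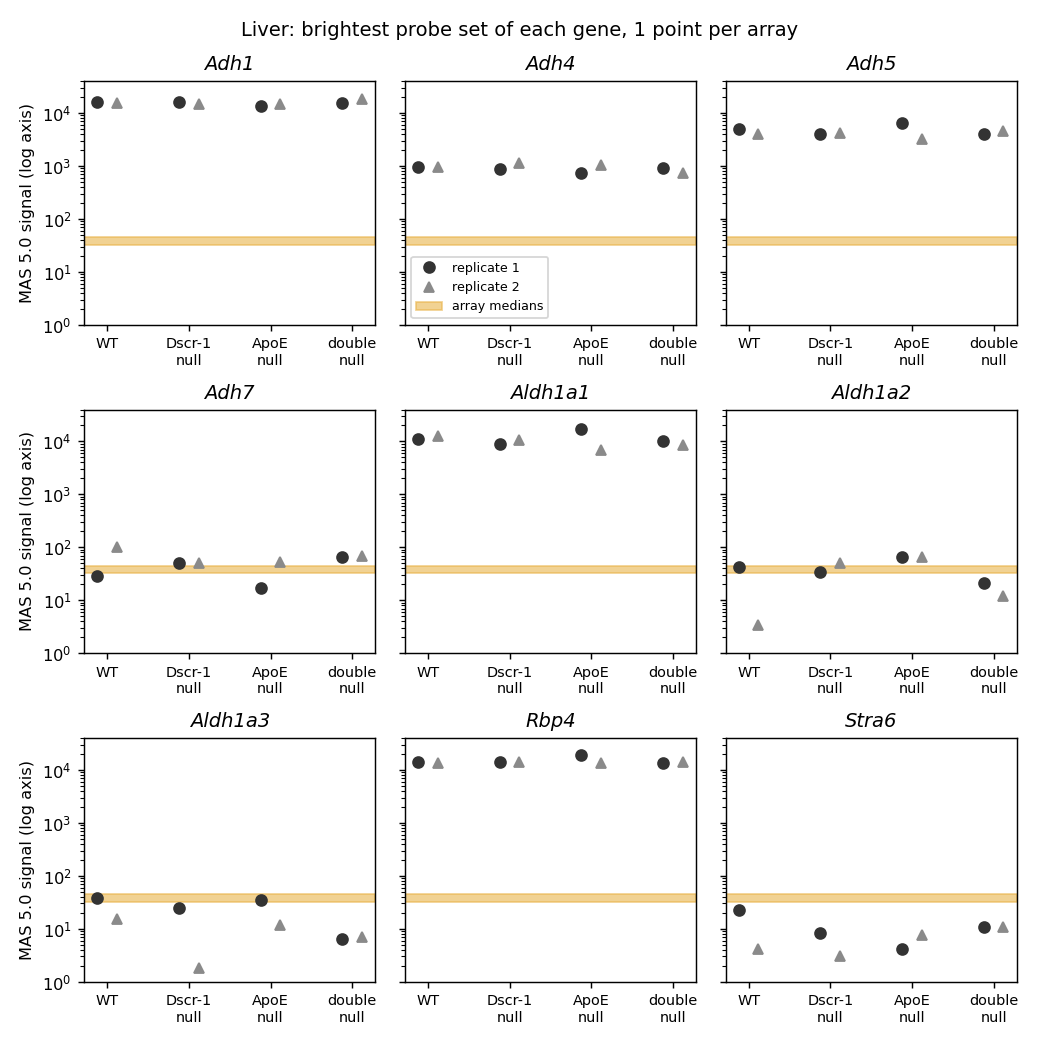
MAS 5.0 signal on a log axis for the brightest probe set of each gene on the 8 liver arrays, by genotype, with 1 symbol per replicate and a band for the array medians (32.2 to 44.7). Adh1, Adh4, Adh5, Aldh1a1 and Rbp4 lay above the band on all 8 arrays, and ApoE null replicate 1 was the highest array for Adh5, Aldh1a1 and Rbp4.

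The remaining members were dim in liver. Aldh1a2 had signals of 42.5 and 3.4 in WT, 34.7 and 49.9 in Dscr-1 null, 65.1 and 64.3 in ApoE null and finally 21.3 and 12.3 in double null livers, 4 of them above the array median. Double null lay below ApoE null, with a difference of -1.31 (interval -2.56 to -0.07, adjusted p = 0.732, limma). ApoE null lay above WT by 1.26 (adjusted p = 0.771, limma), and the interaction, the departure of double null from the sum of both single losses, was -2.09 (adjusted p = 0.838, limma). Without WT replicate 1 these last values were 2.06 and -2.89, and without WT replicate 2 they were 0.46 and -1.30. All rest on signals near or under the median. Adh7 ran from 17.1 to 101.2 on its brighter probe set, with 66.5 and 69.6 in double null against 17.1 and 52.7 in ApoE null livers, a difference of 0.82 with an interval of -0.46 to 2.09. Stra6 ran from 3.1 to 22.5 and was below the median on all 8 arrays, and the probe set of Aldh1a3 brightest in liver did not pass the filter there. The Aldh1a3 probe set read in aortic cells was kept in liver and had 8.8 and 2.7 in WT, 49.1 and 2 in Dscr-1 null, 71.2 and 19.6 in ApoE null and finally 4.1 and 3.8 in double null livers, 2 of the 8 above the array median. Its double null minus ApoE null difference was -1.48 (adjusted p = 0.779, limma).

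Of the 7 members tested in liver, none passed at an adjusted p under 0.05 (limma) in Dscr-1 null minus WT (0.00678% of all genes passed), ApoE null minus WT (0.0136%), double null minus WT (0.0136%), double null minus ApoE null (0%) or the interaction (0%). At an unadjusted p under 0.05 the counts were 0, 1, 0, 1 and 1 in the same order, each time Aldh1a2, against 3.82%, 5.71%, 5.29%, 5.24% and 4.3% of all genes. The methods' t-test, run for the 4 comparisons of pairs of groups, gave 0, 0, 0 and 1 at its unadjusted threshold, against 5.43%, 5.62%, 7.57% and 5.33% of all genes. The median difference over the 7 members was -0.03, -0.11, -0.05, -0.12 and 0.00, against -0.01, -0.00, 0.01, 0.00 and 0.02 over all genes.

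**Figure D4:**
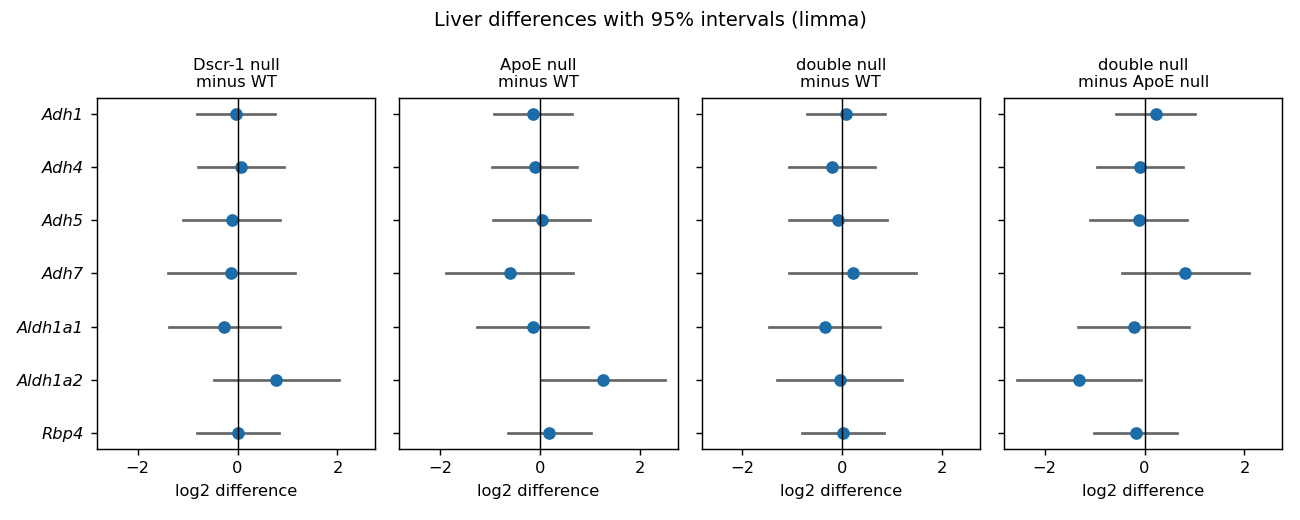
Fitted liver differences on the log2(signal + 16) scale with 95% intervals (limma, n = 2 arrays per genotype) for the 7 members tested, in 4 comparisons. Every interval of Adh1 included 0, and the interval of Aldh1a2 lay above 0 in ApoE null minus WT and below 0 in double null minus ApoE null.

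Of the 79 list genes, 62 were tested in liver and none passed in any of the 5 comparisons (limma). At an unadjusted p under 0.05 there were 5 for Dscr-1 null, 6 for ApoE null and 3 for double null against WT, 1 for double null minus ApoE null and 4 for the interaction, and the methods' t-test gave 8, 5, 4 and 3 in the first 4 comparisons. Over all genes the limma shares at that p were 3.82%, 5.71%, 5.29%, 5.24% and 4.3%, and those of the methods' t-test 5.43%, 5.62%, 7.57% and 5.33%. Rarb, a receptor gene that retinoic acid induces, had the lowest p among the receptors, with signals of 143.2 and 77.2 in WT, 7 and 5.4 in Dscr-1 null, 9.3 and 39.5 in ApoE null and finally 52.6 and 30.5 in double null livers. Both Dscr-1 null signals lay below the medians of their arrays (35.4 and 32.6). The difference for Dscr-1 null of -2.46 ± 0.50 (SE) did not pass (adjusted p = 0.885, limma). Cyp26a1, the liver enzyme that breaks down retinoic acid and is induced by it, had 226 and 282.8 in WT, 137.1 and 55.9 in Dscr-1 null, 197.1 and 103.5 in ApoE null and finally 139.4 and 100 in double null livers. Its difference for Dscr-1 null was -1.36 (adjusted p = 0.978, limma). Rarres1, another gene of the induced list, differed by 1.06 in Dscr-1 null livers (adjusted p = 1, limma).

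Nr2f1, an orphan receptor that competes for retinoid response elements, had 3.6 and 14.1 in WT, 75.4 and 57.8 in Dscr-1 null, 98.4 and 61.2 in ApoE null and finally 67.1 and 17.1 in double null livers (difference 1.95 for ApoE null, adjusted p = 0.601, limma). Cyp2c39, a P450 that oxidises retinoic acid, had 12.5 and 24.4 in WT and 54.1 and 106.6 in Dscr-1 null livers (difference 1.45, adjusted p = 0.952, limma).

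Among the carriers and lipases, Lpl, the lipase that also frees retinyl esters from chylomicrons, had 512.5 and 627 in WT, 917.9 and 797.7 in Dscr-1 null, 1625 and 1953 in ApoE null and finally 2572 and 2009 in double null livers. The difference for double null of 1.97 ± 0.36 (SE) did not pass (adjusted p = 0.658, limma). Fabp5 had 1260 and 1060 in WT and 7357 and 3826 in Dscr-1 null livers. ApoE null livers had 2280 and 6237 and double null livers 3677 and 5196. The Fabp5 difference for Dscr-1 null was 2.18 (adjusted p = 0.885, limma). Ces1d, a carboxylesterase able to hydrolyse retinyl esters, had 3584 and 3610 in WT, 2216 and 2550 in Dscr-1 null, 2036 and 2044 in ApoE null and finally 1634 and 1535 in double null livers. The Ces1d difference for double null was -1.18 (adjusted p = 0.671, limma). Beside these, in double null minus WT livers the macrophage markers had a median difference of 0.91 (5 of 10 at an unadjusted p under 0.05, limma). The Kupffer cell markers had 0.76 (4 of 8) and the adipocyte markers 1.12 (2 of 5), where 5.29% of all genes had such a p. Adgre1, Csf1r and C1qa are on both the macrophage and the Kupffer cell list, so these counts are not independent. In Dscr-1 null minus WT livers, where Fabp5 had its lowest p, the same medians were -0.10 (0 of 10), 0.13 (0 of 8) and 0.18 (2 of 5), against 3.82% of all genes. The part of these cells in the values of Lpl and Fabp5 was not tested.

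The remaining dehydrogenases with the lowest p in liver were dim or differed little. Aldh3a1, an aldehyde dehydrogenase of cornea and stomach, had 4.7 and 7.8 in WT and 74.6 and 25.7 in ApoE null livers (difference 1.47, adjusted p = 0.688, limma). Aldh18a1 differed by 1.43 in Dscr-1 null and Aldh1b1 by 0.84 in ApoE null livers. Dhrs7 and Rdh13 differed by -0.60 and -0.96 in double null livers, and Hsd17b6 by 1.08 in Dscr-1 null livers (adjusted p from 0.852 to 1 for these 5, limma).

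The genes most like Adh1 across the 8 liver arrays were Brk1, at a distance of 0.149, Atp5pb (0.172), Idh3g (0.188), Fam120a (0.192) and Pdzd8 (0.193). Since Adh1 itself spanned 0.382 on the log2 scale over these arrays, the likeness is mainly that of genes that varied little.

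The targeted genes were read as a check of the labels. Apoe signal in liver was 19937 to 21510 on the 4 arrays labelled as carrying the gene and 79.8 to 305 on the 4 labelled as lacking it, on its brightest probe set. In aortic cells, all labelled as lacking ApoE, its log2 values of 7.27 and 7.17 (ApoE null) and 8.29 and 6.69 (double null) lay above the array medians. The brightest Rcan1 probe set had 9.99 and 9.92 in ApoE null cells against 10.09 and 10.26 in double null aortic cells, and the sources used here do not give its position relative to the deleted part of Dscr-1. In liver the same Rcan1 probe set had signals of 210 and 133.7 in WT, 255.2 and 353.1 in Dscr-1 null, 496.5 and 176.7 in ApoE null and finally 491.5 and 209.5 in double null livers, and so it was not lower where the labels give Dscr-1 as lost. The dimmer Rcan1 probe set had 19.6 and 46.9 in WT and 7.5 and 5.1 in Dscr-1 null livers. In ApoE null livers it had 41 and 2.7, against 44.7 and 21.8 in double null. It was thus lower in Dscr-1 null but not in double null livers. In aortic cells it had 6.30 and 5.95 in ApoE null against 6.65 and 6.86 in double null. The Dscr-1 genotype in both tissues was therefore taken from the labels alone. The direction of the aortic Adh1 difference and of each liver comparison with Dscr-1 null or double null rests on it.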

How the data were processed

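Livers (8 arrays) and primary aortic endothelial cells (4 arrays) were hybridised to Affymetrix mouse genome arrays, and groups follow the sample titles. The liver intensity values deposited by the authors are linear MAS 5.0 signals, globally normalized to an average of 100. For aortic cells the authors deposited log2 values, whose normalization the sources used here do not give. Transcriptome Analysis Console is named in the submitters' processing notes. Neither set was rescaled. Liver values were used as log2(signal + 16), and fold changes on that scale understate the change of dim genes.

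Of 45037 probe sets (64 control probe sets apart), 34945 were annotated to 1 gene, 932 to several and 9160 to none. Probe sets above the median of their array on 2 or more arrays of a tissue entered its fit, 32005 for liver and 22927 for aortic cells. Each gene was read from its brightest probe set (highest mean log2), giving 14758 and 11647 genes. Each tissue was fitted with lmFit and eBayes of limma (version 3.58.1, R 4.3.3) with a mean per genotype, leaving 4 and 2 residual degrees of freedom, and p-values were adjusted (Benjamini-Hochberg) over all kept probe sets with a threshold of 0.05. Simulated data with known changes were used to test this fit. With 2 arrays per group, the number of arrays limits the precision.

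The members and lists were chosen with earlier results of these data known. All 9 members were named, with the 3 genes of lowest p per list and tissue, the 5 genes nearest to Adh1 in each tissue, Apoe and Rcan1. Vwf, Robo4, Msr1, Lyz2, Krt18, Gpm6a, Aldh1a7 and other markers and list genes beside the members were named after their values were seen. Promoter windows are RefSeq, GRCm38.p6, matched by symbol, with 14 windows for 8 of 9 members. Alternatives were an offset of 1 or 64, quantile normalization, no filter, a fit with trend and robust variance, the mean of a gene's probe sets, the replicate block, the methods' t-test, and leaving out each array. The methods' t-test is the one the study gives for 2 groups, applied here to each pair of genotypes. For multiple samples the study gives a one-way ANOVA with the Tukey test, and it names no test for single genes on the arrays. Same-numbered aortic arrays share a run prefix in the labels and their deviations from the group means correlated at 0.297, so aortic differences are also given within runs. In liver these correlations were -0.00155 to 0.0293 and the numbers were taken only as names. The run entered the aortic fit only in the replicate block, so the main aortic intervals and p-values do not take the pairing into account.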

Additional observations from a re-analysis of the deposited data

Results flagged for a closer look

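Adh1 and Adh7 lay on opposite sides in the 2 tissues under the same contrast, double null minus ApoE null. Adh1 was higher on every double null array in liver (difference 0.22 on the log2 scale) and lower on every double null array in aortic cells (-3.12, the comparison on which it was chosen). On its brighter probe set Adh7 was higher on every double null array in liver (0.817) and lower in aortic cells (-0.184). The dimmer Adh7 probe set was lower in double null in both tissues (-0.33 in liver and -0.71 in aortic cells), so the opposite sides of Adh7 hold for the brighter probe set only. In liver the difference of 0.817 was 0.29 without ApoE null replicate 1, 1.34 without ApoE null replicate 2 and 0.24 with the mean of the probe sets. Neither difference passed in liver, where the 95% intervals were -0.56 to 1.0 for Adh1 and -0.46 to 2.09 for Adh7 (limma). In aortic cells 14.3% of all genes had both double null arrays below both ApoE null arrays. The share of all genes on either side in liver was not computed, and the difference between the tissues was not tested.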

How the results depend on the processing

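Of 280 recomputed member differences, leaving out an array apart, 273 kept their direction. Those with no filter, with trend and robust variance or with the replicate block equal the main differences by construction. Their direction could not turn, so the count overstates the agreement. The aortic Adh1 difference, on which Adh1 was chosen, is counted here and among the leave-one-out values below. The 7 that turned were small or dim: Aldh1a2 in double null minus WT liver was 0.32 with an offset of 1, and the Adh5 interaction was -0.00055 with an offset of 64. With quantile normalization that Adh5 interaction was -0.13, Adh4 in ApoE null minus WT was 0.0036 and Adh1 in double null minus WT was -0.036. With the mean of the probe sets of a gene Adh7 was 0.088 in Dscr-1 null and 0.38 in ApoE null minus WT. Leaving out 1 array turned 39 of 308 values, and the cause was not tested. A liver difference between 2 genotypes cannot change when an array of another genotype is left out. Many of the 308 values therefore could not turn, and the count understates how often the others did. The liver ranges of the differences that turned were, for Adh1, -0.085 to 0.020 (Dscr-1 null minus WT) and -0.039 to 0.20 (double null minus WT). For Adh4 they were -0.10 to 0.25 (Dscr-1 null minus WT), -0.35 to 0.13 (ApoE null minus WT), -0.34 to 0.15 (double null minus ApoE null) and -0.41 to 0.074 (interaction). For Adh5 they were -0.25 to 0.018, -0.45 to 0.52 and -0.22 to 0.054 (the 3 mutants minus WT, the Dscr-1 null first and the double null last), -0.60 to 0.37 (double null minus ApoE null) and -0.48 to 0.48 (interaction). For Adh7 the 3 mutants minus WT, in that order, gave -0.81 to 0.57, -1.30 to 0.087 and -0.48 to 0.90. For Aldh1a1 they were -0.80 to 0.52 (ApoE null minus WT), -0.87 to 0.45 (double null minus ApoE null) and -0.61 to 0.71 (interaction). For Aldh1a2 they were -0.017 to 1.57 (Dscr-1 null minus WT) and -0.85 to 0.74 (double null minus WT). For Rbp4 the 3 mutants gave -0.030 to 0.049, -0.073 to 0.45 and -0.025 to 0.054, with -0.44 to 0.088 (double null minus ApoE null) and -0.45 to 0.079 (interaction). In aortic cells Adh5 ranged from -0.15 to 0.052 and Aldh1a3 from -2.0 to 0.0036.

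The counts of list genes passing, 0 in each comparison, became 1 in ApoE null minus WT and 1 in double null minus WT with an offset of 64 (Lpl), and 1 (Lpl) and 2 (Lpl and Ces1d) with trend and robust variance. The methods' t-test at its unadjusted threshold gave 8, 5, 4 and 3 list genes in liver, 1 in aortic cells and 1 member (Aldh1a2, double null minus ApoE null liver), and 0 members and list genes after Benjamini-Hochberg. It was not run for the interaction. Leaving out either double null aortic array added calls among members other than Adh1 and among list genes. The double null array that remained had no spread of its own, and calls also rose over all genes, as given above. The list genes called in these fits are therefore not counted. With the replicate block 0 members and 0 list genes passed in either tissue, and all genes passing in aortic cells went from 2 to 0. The block changed no other call of members or list genes. Over all genes, the 3 mutants minus WT gave 1, 2 and 2 passing, 5, 13 and 23 with an offset of 64, 0, 0 and 1 with an offset of 1, 19, 40 and 77 with trend and robust variance, and 0, 1 and 1 with the mean of probe sets. The methods' t-test gave 801, 830 and 1117 unadjusted and 0 after Benjamini-Hochberg.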
